A study of Mus musculus with 6 samples.

Results

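The genes described here are 8 genes of the interferon response and of antigen presentation: Irf1, Irf7, Irf9, Stat2, Ifit1, H2-Eb1, B2m and Ly6e. Their members are all cDNA clones that the array annotation, brought to current symbols, assigns to 1 of these genes. They came to 17 of the 36046 clones on the array, and to 8 of its 11837 named genes. Of the 17 clones, 15 passed the quality filter on at least 4 of 6 arrays and were tested. The samples were whole adrenal glands of PACAP +/+ (wild-type) and PACAP -/- (knockout) mice, both of the F2 generation of a 129XC57BL6 cross. Adcyap1 encodes PACAP (pituitary adenylate cyclase-activating polypeptide), a peptide transmitter of the nerve that drives the chromaffin cells of the adrenal medulla, and the study's title asks for the adrenal genes that depend on it. Each of the 6 arrays carried 1 wild-type RNA labelled with the red dye Cy5 and 1 knockout RNA labelled with the green dye Cy3. Age and sex of the mice, and the number of animals behind each RNA, are not stated by the labels. The p-values therefore rest on the variation among 6 arrays, part of which may be technical. The dyes were never exchanged, so that for any clone a dye effect and an effect of the genotype cannot be told apart.

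Interferons bind receptors that activate Janus kinases, which phosphorylate STAT proteins. STAT2 and IRF9 are parts of a complex that binds the interferon-stimulated response element (ISRE) in the promoters of type I interferon targets, whereas the response to interferon gamma runs through the gamma-activated site (GAS). Among the targets are the transcription factors IRF1 and IRF7, antiviral proteins such as IFIT1, the membrane protein LY6E, and the proteins that present peptides to T cells. B2M is the light chain of MHC class I molecules, which nearly all nucleated cells carry, and H2-Eb1 encodes the beta chain of an MHC class II molecule, which macrophages, dendritic cells and B cells carry. In the adrenal gland, class II protein is best known from resident macrophages.

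Promoter sequence is shown because it sets out which of these genes carry the binding motifs that name the pathway. The RefSeq promoter table of the build GRCm38.p6 held 9 windows for 7 of the 8 genes, and the 250 bases before each start were searched on both strands for the ISRE letters (GAAA, any 2 bases, GAAA), the GAS letters TTCNNNGAA and the Y box letters CTGATTGG of class II promoters. These letters occur in 2.98%, 7.02% and 3.83% of all 32851 promoters of the table. The matches did not overlap. A match is a stretch of letters and does not show that a factor binds there. Capitals mark the motif, with 15 bases on either side, 5′ to 3′ on the strand of the gene.
Irf1, GAS, chr11:53769909-53769947, plus strand: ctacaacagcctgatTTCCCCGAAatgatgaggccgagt
Stat2, ISRE read on the opposite strand, chr10:128270261-128270300, plus strand: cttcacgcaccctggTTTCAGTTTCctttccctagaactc
Ifit1, both ISRE matches on the opposite strand, chr19:34640770-34640828, plus strand: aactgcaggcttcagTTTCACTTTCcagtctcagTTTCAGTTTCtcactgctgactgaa
H2-Eb1, Y box, chr17:34305790-34305827, plus strand: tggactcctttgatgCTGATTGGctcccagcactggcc
B2m, ISRE, chr2:122147533-122147572, plus strand: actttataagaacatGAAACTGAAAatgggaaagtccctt
The Ifit1 window held 2 ISRE matches, which ended 95 and 76 bases before the start. In Irf1 the GAS match lay 90 to 82 bases before the start of 1 of its 2 windows. These letters were not found in the windows of Irf7 and Irf9, nor in the second Irf1 window.

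All values below are log2 ratios of knockout over wild type, so that a positive value means a higher level in the knockout. A call is an adjusted p below 0.05 in limma's moderated test against 0, with Benjamini-Hochberg adjustment over all 28659 tested clones. Global loess, which fits 1 curve per array, left ratios that followed the 48 print blocks of the slide, each the area of 1 printing pin. Block medians ran from -0.60 to 0.53, and blocks held 46.7% of the variance of the clone means. Print-tip loess, which fits each block by itself, brought this share to 0.0707%, and values from both are therefore given. At an unadjusted p below 0.05 there were 12214 of the 28659 clones after global loess and 9422 after print-tip loess. Red (wild-type) signal was weak on some arrays. Signal, with local background already subtracted, is given here as a multiple of that background. The median in red was 1.32 and 1.11 times on arrays 2 and 4 and between 1.59 and 4.57 times on the others. In green it was 5.15 to 6.79 times. The 1 clone of Adcyap1, the targeted gene, passed the quality filter on 2 arrays and gave no check of the labels.

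The 8 genes were called in both directions. After global loess, 10 of the 15 tested clones were called, 7 higher and 3 lower in the knockout, where 30.5% of all clones were called (16.2% higher and 14.3% lower). After print-tip loess 6 of 15 were called, 5 higher and 1 lower, where 11.5% of all clones were called (6.84% higher and 4.68% lower). The median over the 15 clones was 0.28 after global and 0.33 after print-tip loess, against 0.016 and -0.0016 over all clones. After print-tip loess Irf1, B2m and Ly6e had clones called higher and Ifit1 was called lower. In either normalization 11 of the 15 clones had a mean above 0. A total of 3 clones were called in 1 direction in both normalizations: those of Irf1 and Ifit1, and 1 of 4 of Ly6e. Of all 28659 tested clones, 2037 were called in the same direction in both. The clones are named below by their print block.

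**Figure D1:**
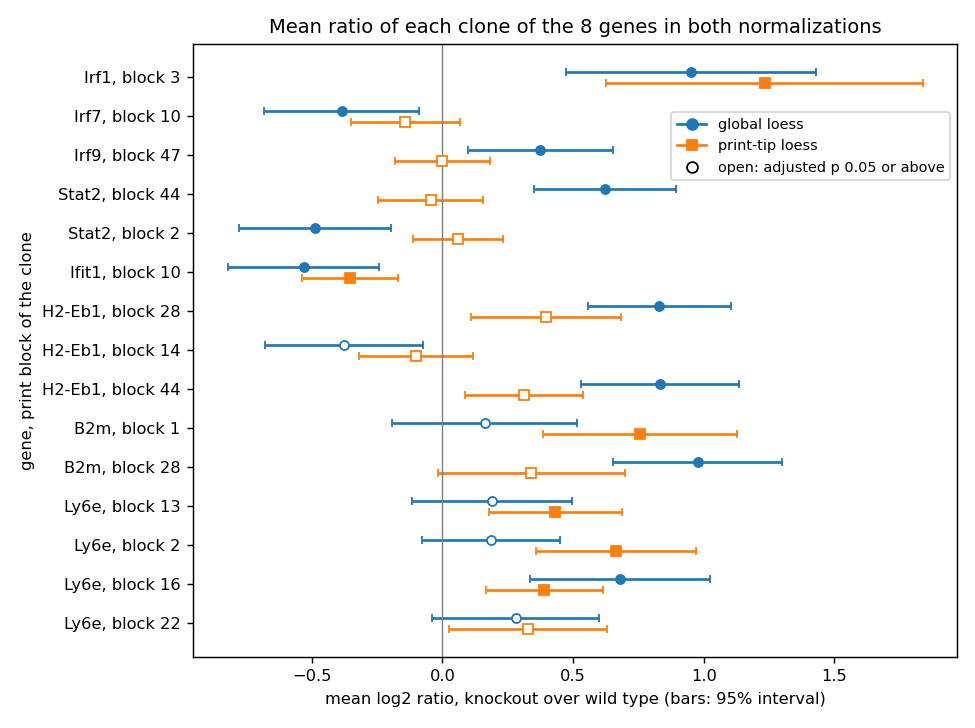
Mean log2 ratio (x axis) of the 15 tested clones, 1 row per clone named by gene and print block, after global loess (circles) and print-tip loess (squares), with 95% intervals from limma over 6 arrays (5 for H2-Eb1 in block 14); open symbols have an adjusted p of 0.05 or above. Irf1 lay highest after print-tip loess at 1.23, Ifit1 lay below 0 in both, and the 2 clones of Stat2 met near 0 after print-tip loess.

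Stat2 and Irf9 encode partners of the complex that binds the ISRE, and neither was called once print blocks were fitted separately. Stat2 (chr10:128270498-128292853) had 2 clones. The clone in block 44 had log2 ratios from 0.24 to 0.98 after global loess, with a median of 0.62, whereas the clone in block 2 ran from -1.05 to -0.23 with a median of -0.34. All 6 arrays were above 0 for the first and all 6 below 0 for the second, so that 2 clones of the same gene were called in opposite directions: 0.62 ± 0.13 (SE, n = 6, limma adjusted p = 0.00387) and -0.49 ± 0.14 (SE, n = 6, adjusted p = 0.0163). The medians of all clones in these blocks were 0.50 and -0.52. After print-tip loess the clones differed by 0.10 instead of 1.11, at -0.04 ± 0.09 (limma adjusted p = 0.758) and 0.06 ± 0.08 (adjusted p = 0.619). The 95% intervals, -0.25 to 0.16 and -0.11 to 0.23, then held 0. They reflect the variation among arrays in that normalization, and not a dye effect or the choice of normalization. Without array 4 the lower call of the block 2 clone after global loess was lost (-0.45, adjusted p = 0.0612).

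Irf9 (chr14:55603985-55610030), the DNA-binding partner of STAT2, gave ratios between 0.11 and 0.71 on the 6 arrays after global loess, with a median of 0.28. No array was below 0, and the mean of 0.37 ± 0.13 (SE, n = 6) passed with a limma adjusted p of 0.042. After print-tip loess the arrays ran from -0.19 to 0.20, 3 above and 3 below 0, and the mean was 0.00057 ± 0.08 (adjusted p = 0.997, 95% interval -0.18 to 0.18). The call after global loess was lost without array 2, 3, 4 or 6, with values between 0.31 and 0.42 and adjusted p-values between 0.0598 and 0.15. The scanner files give this clone no name, so that its identity rests on the array annotation. A second Irf9 clone, which those files do name, passed the quality filter on 2 arrays and was not tested. It was at 0.10 and 0.31 after global loess and -0.08 and -0.16 after print-tip loess.

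Irf1 (chr11:53770014-53778374), a transcription factor induced through the GAS and an activator of MHC class I genes, was higher in the knockout in both normalizations. Its clone had red (wild-type) intensities of 5725, 1392, 2156, 685, 966 and 945 on arrays 1 to 6, and green (knockout) intensities of 6227, 9109, 6514, 7462, 3103 and 4851. The log2 ratios after global loess were -0.04, 1.72, 0.60, 2.10, 0.55 and 0.78. The ratio was highest on arrays 2 and 4 and lay next to 0 on array 1, the array with the strongest red signal. The mean was 0.95 ± 0.22 (SE, n = 6), a 1.93-fold higher level, higher on 5 of 6 arrays (limma adjusted p = 0.00759). After print-tip loess the ratios ran from 0.10 to 2.44, all 6 above 0, with a mean of 1.23 ± 0.27, or 2.35-fold (limma adjusted p = 0.0311). The clone stood above the median of its own block, which was -0.38, and at the 99.8th percentile of the 617 clones of that block. Without arrays 2 and 4, chosen for their weak red signal, the mean was 0.47 (adjusted p = 0.101) after global and 0.69 (adjusted p = 0.0869) after print-tip loess. The print-tip call was also lost on leaving out array 2, 3, 4 or 6 alone, with values from 0.99 to 1.31 and adjusted p-values from 0.063 to 0.0814. This loss was not particular to Irf1: of all clones, 1 was called without array 2, 3 or 6 and 28 without array 4. Over 16 alternatives without print-tip loess or block medians, the Irf1 mean ran from 0.14 to 1.15. It was called higher in 13 of these, and the highest limma adjusted p was 0.687. The part of red signal strength in the size of the ratio was not tested further.

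Irf7 (chr7:141263183-141266499), which amplifies type I interferon production after virus sensing, had a mean below 0. Its clone, in block 10, gave ratios from -0.82 to 0.10 after global loess, with a median of -0.35. Of the 6 arrays 5 lay below 0, and the mean of -0.39 ± 0.14 (SE, n = 6) was called with a limma adjusted p of 0.0486. The median of all clones in block 10 was -0.25, and after print-tip loess the Irf7 mean was -0.14 ± 0.09 (adjusted p = 0.312, 95% interval -0.35 to 0.07). Of the fits that left out 1 array after global loess, the one without array 6 kept the call (-0.48, adjusted p = 0.0192), and those without array 1, 2, 3, 4 or 5 gave -0.42 to -0.30 with adjusted p-values from 0.0519 to 0.179.

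Ifit1 (chr19:34640889-34650009), an antiviral protein that binds foreign RNA and the gene with 2 ISRE matches above, was lower in the knockout in both normalizations. Its red intensity lay between 447 and 1691 and its green intensity between 748 and 2874. The log2 ratios ran from -0.97 to -0.11 after global loess, with a median of -0.54, and from -0.56 to -0.09 after print-tip loess, with a median of -0.37. All 6 arrays were below 0 in both. The mean was -0.53 ± 0.13 (SE, n = 6, 1.44-fold lower, limma adjusted p = 0.0108) and -0.35 ± 0.08 (1.28-fold lower, adjusted p = 0.0334). Ifit1 shares block 10 with Irf7, and within that block's 685 clones it stood at the 8.47th percentile after global and the 3.07th after print-tip loess. The lowest ratios came from arrays 3 and 4. Without array 4 the global value was -0.44 (adjusted p = 0.0514), and the print-tip call was lost without array 2, 3, 4 or 6 (-0.35 to -0.31, adjusted p 0.0592 to 0.0984). Nearly all clones of the array lost their print-tip calls in these fits.

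Ly6e (chr15:74955025-74959904), a membrane-anchored protein induced by type I interferon, had 4 clones, and 3 of them were called higher after print-tip loess. Its promoter was not in the table. The clone in block 16 was called in both normalizations: its ratios ran from 0.27 to 1.45 after global loess, with a median of 0.59, and all 6 arrays lay above 0. The mean was 0.68 ± 0.16 (SE, n = 6, 1.60-fold, limma adjusted p = 0.00789), and 0.39 ± 0.10 (1.31-fold, adjusted p = 0.0389) after print-tip loess. The clones in blocks 2 and 13 lay in areas of the slide with medians of -0.52 and -0.29. After global loess they stood at 0.19 ± 0.12 (adjusted p = 0.27) and 0.19 ± 0.14 (adjusted p = 0.328), and after print-tip loess at 0.67 ± 0.14 (adjusted p = 0.0285) and 0.43 ± 0.11 (adjusted p = 0.0412), above 0 on all 6 arrays. The clone in block 22, at 0.28 ± 0.15 and 0.33 ± 0.14, passed in neither (limma adjusted p = 0.167 and 0.127).

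All 4 Ly6e clones thus had means above 0 in both normalizations, and their spread was 0.49 after global and 0.34 after print-tip loess. Each stood between the 90.5th and the 97.5th percentile of its block after print-tip loess. The print-tip calls in blocks 2 and 16 were lost without array 2, 3, 4 or 6, with values of 0.59 to 0.68 and 0.32 to 0.40 and adjusted p-values of 0.0581 to 0.079 and 0.0685 to 0.111. So were the print-tip calls of nearly all clones of the array. The call in block 13 remained without array 1 alone (0.49, adjusted p = 0.0377); without array 2, 3, 4, 5 or 6 it was lost, at values of 0.34 to 0.49 and adjusted p-values of 0.0513 to 0.116. The scanner files name the block 13 clone a small nuclear ribonucleoprotein and give the block 2 clone no name, so that the identity of these 2 rests on the array annotation. Without arrays 2 and 4, the block 16 value after global loess was 0.58 (adjusted p = 0.0825).

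**Figure D2:**
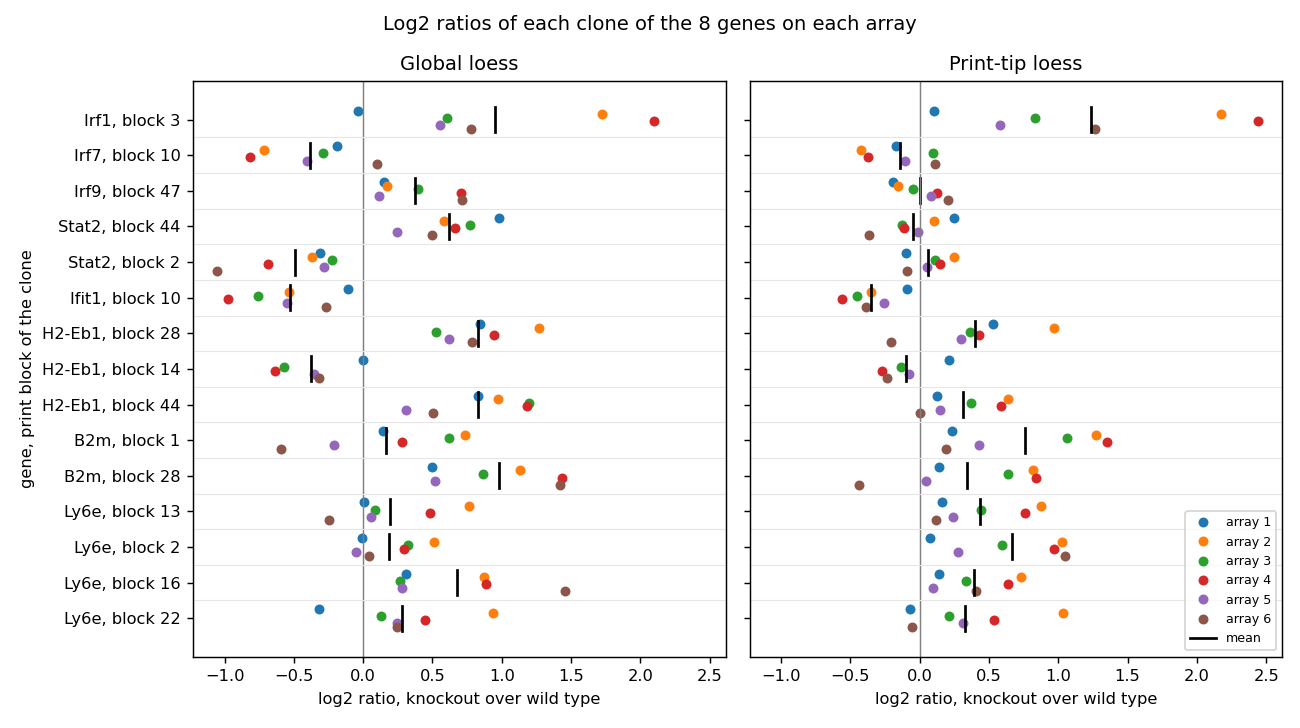
Log2 ratio of knockout over wild type (x axis) of each tested clone on each array (1 colour per array), with the mean as a black line, after global loess (left) and print-tip loess (right). Arrays 2 and 4 held the highest Irf1 ratios, 1.72 and 2.10 after global loess, and all 6 points of Ifit1 lay below 0.

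B2m (chr2:122147687-122153082), the class I light chain, had 2 tested clones, both with means above 0, and which of them was called depended on the normalization. The clone in block 28 ran from 0.50 to 1.43 after global loess, with a median of 1.00 and all 6 arrays above 0. Its mean was 0.98 ± 0.15 (SE, n = 6, 1.97-fold higher, limma adjusted p = 0.00112), the largest among the 15 clones in that normalization. The median of block 28 was 0.36, and after print-tip loess this clone stood at 0.34 ± 0.16 (adjusted p = 0.169), with array 6 at -0.44 and the other arrays above 0. The clone in block 1, the block with the lowest median (-0.60), ran from -0.59 to 0.73 after global loess, with a mean of 0.16 ± 0.16 (adjusted p = 0.481). With print-tip loess its range was 0.19 to 1.35, all 6 arrays above 0, with a mean of 0.76 ± 0.17, or 1.69-fold (limma adjusted p = 0.0311).

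Both B2m clones stood high within their blocks, at percentiles 97.9 (block 1) and 95.1 (block 28) after global loess and 98.4 and 89.3 after print-tip loess. With the block median subtracted from the global loess values, both were called, at 0.78 (limma adjusted p = 0.0193) in block 1 and 0.62 (adjusted p = 0.0188) in block 28. The print-tip call in block 1 was lost without array 2, 3, 4 or 6, at 0.64 to 0.87 with adjusted p-values from 0.0501 to 0.0835, as were those of nearly all clones of the array. The call in block 28 after global loess was kept without any 1 array and also without arrays 2 and 4 together (0.83, adjusted p = 0.0175). The remaining clone, in block 2, passed the quality filter on 2 arrays, at -0.12 and -1.21 after global loess and 0.20 and -0.54 after print-tip loess, and was not tested. A further 3 clones are annotated to both Phf20l1 and B2m and were not counted. Their global loess means were 0.21, -0.05 and -0.43, the last called (limma adjusted p = 0.0128), and after print-tip loess they were 0.28, -0.09 and -0.17 with none called.

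H2-Eb1 (chr17:34305867-34316674), the class II beta chain, had 3 tested clones, of which limma called 2 higher after global loess and none after print-tip loess, where 2 had an unadjusted p below 0.05. The clone in block 28 ran from 0.52 to 1.27 after global loess, with a median of 0.81, and the clone in block 44 from 0.31 to 1.20, with a median of 0.90. All 6 arrays were above 0 for both. The means were 0.83 ± 0.13 (SE, n = 6, 1.78-fold, limma adjusted p = 0.00113) and 0.83 ± 0.14 (1.78-fold, adjusted p = 0.00173), and both calls were kept without any 1 array and without arrays 2 and 4 together (0.69 and 0.71, adjusted p = 0.0208 and 0.0273). After print-tip loess they stood at 0.40 ± 0.13 (limma adjusted p = 0.0676, above 0 on 5 of 6 arrays) and 0.31 ± 0.10 (adjusted p = 0.0686, above 0 on 6 of 6), with 95% intervals of 0.11 to 0.68 and 0.09 to 0.54 before adjustment. With block medians subtracted from the global loess values both were called, at 0.47 (limma adjusted p = 0.0247) and 0.35 (adjusted p = 0.0359). Wild-type signal of both was dim: red, with background already subtracted, lay between 90.7 and 247 in block 28 and between 76.2 and 232 in block 44. On array 4 the subtracted red was smaller than the local background value for both (90.7 against 94.8, and 76.2 against 93.6).

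The third H2-Eb1 clone, in block 14, had a mean below 0. It had values on 5 arrays, from -0.63 to -0.00032 after global loess, none above 0. The mean was -0.38 ± 0.14 (SE, n = 5, limma adjusted p = 0.0587), and -0.10 ± 0.10 (adjusted p = 0.488) after print-tip loess. It was called lower after global loess when array 1 was left out (-0.47, adjusted p = 0.0334). The 3 clones spread over 1.21 after global and 0.50 after print-tip loess. H2-Eb1 lies on chromosome 17, as does the targeted gene Adcyap1 (chr17:93198245-93206541). The labels do not say which strain's alleles each gland carried around either gene.

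The position on the slide went with the direction of the calls. Of the 7 clones called higher after global loess, 6 lay in blocks whose median was above 0, and all 3 clones called lower lay in blocks with a median below 0. The exception was Irf1, called higher in a block with a median of -0.38. Calls of all clones on the slide went with the block too. In block 1 (median -0.60) 0.949% of all clones were called higher and 78.5% lower. In block 44 (median 0.50) 60.9% were called higher and 0% lower. Against their own block, 12 of the 15 clones lay above the median of all clones printed there, and the 3 below it were Irf7, Ifit1 and the block 14 clone of H2-Eb1.

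**Figure D3:**
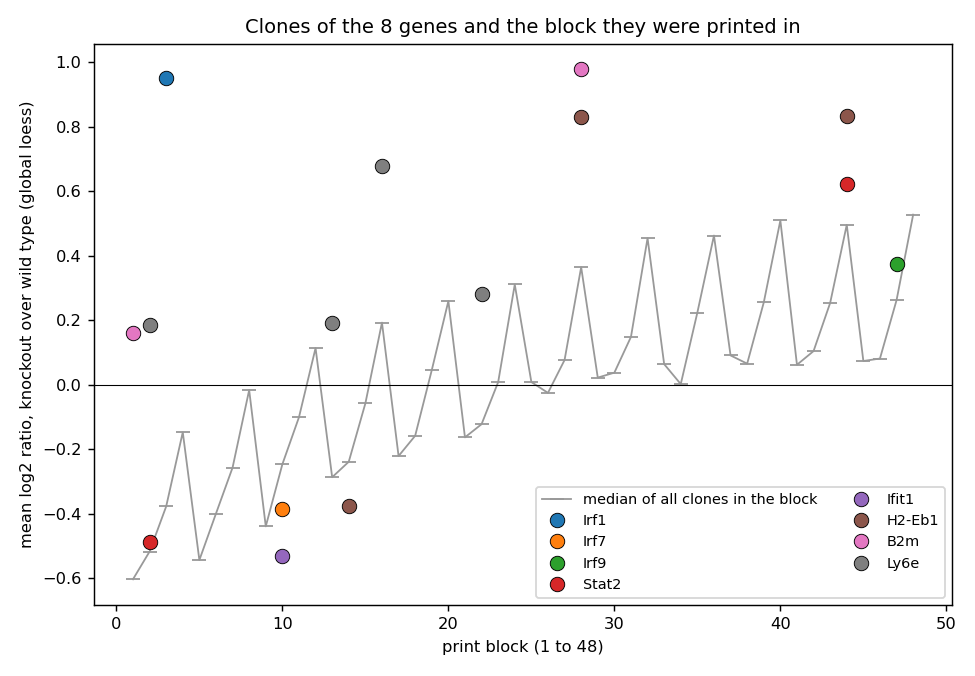
Mean log2 ratio after global loess (y axis) of the 15 tested clones, coloured by gene, at the print block that holds them (x axis, 1 to 48), with the median of all clones of each block as a grey tick. The tick marks run from -0.60 to 0.53, and the 2 Stat2 clones lie beside theirs while Irf1 lies 1.33 above its own.

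The arrays differed in how far these clones stood from 0. The median over the 15 clones (14 on array 2) was 0.00, 0.75, 0.33, 0.48, 0.11 and 0.25 on arrays 1 to 6 after global loess, and 0.12, 0.77, 0.33, 0.53, 0.10 and 0.00 after print-tip loess. Arrays 2 and 4 held the 2 highest medians in both, and these are the arrays whose subtracted red signal was lowest relative to local background. Without arrays 2 and 4, 4 of the 15 clones were called after global loess: H2-Eb1 in blocks 28 and 44, B2m in block 28 and Stat2 in block 44. After print-tip loess none was called without these arrays, and 6 had an unadjusted p below 0.05. Of all clones, 2227 were called without these arrays after global loess and 92 after print-tip loess. With all 6 arrays, 9422 of all 28659 clones had an unadjusted p below 0.05 after print-tip loess. The count of 6 without arrays 2 and 4 was not compared with all clones.

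The rest of the pathway was read from lists of known genes, each gene by its tested clone of highest signal, which for Stat2 is the clone in block 44, for B2m that in block 1, for H2-Eb1 that in block 28 and for Ly6e that in block 13. Of 10400 such genes, 31.1% were called after global loess (16.2% higher and 14.9% lower) and 11.2% after print-tip loess (7.67% higher and 3.53% lower), with medians of 0.0085 and 0.010. The lists were chosen with results of these data known, and some of the 8 genes are on them. Counts are given as higher and lower in the knockout, and other clones of a named gene are given where their sign or call differed. The counts rested on few arrays, as did those of all clones. After print-tip loess no gene of the 7 lists was called without array 2, 3, 4 or 6, or without arrays 2 and 4 together. Of all clones on the array, 1 was then called without array 2, 3 or 6, 28 without array 4 and 92 without arrays 2 and 4.

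Among 4 tested ligand and receptor genes of interferon, 1 was higher after global loess and the median was 0.33. Ifnar2, a chain of the type I interferon receptor, was at 0.64 ± 0.14 (SE, n = 6, limma adjusted p = 0.00542), with all 6 arrays above 0. It kept its size after print-tip loess, at 0.62 ± 0.18, but passed no longer (adjusted p = 0.0509). In that normalization 1 gene of this list was called, Ifngr2, a chain of the receptor for interferon gamma, at -0.25 (limma adjusted p = 0.047), and the list median was 0.08. A second Ifngr2 clone had the opposite sign, at 0.28 (adjusted p = 0.0514), and after global loess the 2 clones were at -0.24 and 0.17, with neither called.

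Of 19 tested JAK-STAT and IRF genes, 5 were higher and 2 lower after global loess (median 0.02), and 3 were higher and 2 lower after print-tip loess (median 0.06). The higher genes after global loess include Stat2, whose other clone was called lower. The 7 calls after global loess became 3 without array 2 or array 4, 4 without array 3 and 1 without arrays 2 and 4, and the 5 print-tip calls became 1 without array 5. Beside Irf1, the genes higher after print-tip loess were Socs1, a feedback inhibitor of the Janus kinases, at 0.40 ± 0.11 (limma adjusted p = 0.0492), and Pias4, a SUMO ligase that restrains STAT signalling, at 0.34 (adjusted p = 0.0358), with a second clone at 0.03 (adjusted p = 0.839). The lower genes were the kinases Jak2, at -0.32 ± 0.09 (limma adjusted p = 0.0498), and Jak1, at -0.27 (adjusted p = 0.0449). The clones of Jak1 disagreed: its other clones were at 0.33 and 0.26 after print-tip loess (adjusted p = 0.0779 and 0.149), and the latter was called higher after global loess, at 0.50 (adjusted p = 0.0253). Socs1 and Jak2 were called in the same direction after global loess, at 0.47 ± 0.14 (limma adjusted p = 0.0238) and -0.73 ± 0.16 (adjusted p = 0.00483). Of 9 tested genes that sense nucleic acids, Myd88, an adaptor of Toll-like receptors, was the 1 called after global loess, at -0.69 ± 0.17 (limma adjusted p = 0.0107). After print-tip loess it was at -0.31 ± 0.11 (adjusted p = 0.0918) and limma called none of the list, with 2 genes at an unadjusted p below 0.05 (9422 of all 28659 clones).

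Interferon-stimulated genes were called in both directions. Of 31 tested, 6 were higher and 6 lower after global loess, with a median of 0.04, and 5 were higher and 1 lower after print-tip loess, with a median of 0.02. The 12 calls after global loess became 7 without array 4, 8 without array 3 and 3 without arrays 2 and 4. The genes higher after print-tip loess were Irf1, B2m, Ly6e, Sp100 and Ifitm3. Sp100, a nuclear body protein of a multicopy family in mice, was at 1.30 ± 0.17 (SE, n = 6, limma adjusted p = 5.53e-04) after global and 0.78 ± 0.16 (adjusted p = 0.0275) after print-tip loess. Ifitm3, a membrane protein that blocks virus entry, was at 0.89 ± 0.20 (limma adjusted p = 0.00563) and 0.79 ± 0.17 (adjusted p = 0.0298). Its second clone, at 0.82 and 0.57, was called after global loess alone (adjusted p = 0.00781 and 0.0565). Both had all 6 arrays above 0 after global loess. Ifit1 was the 1 gene of this list called lower after print-tip loess.

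Several calls of this list's clones of highest signal were seen after global loess alone. Sp110, a relative of Sp100, was at 0.73 ± 0.13 (limma adjusted p = 0.0019) after global and at 0.16 ± 0.08 (adjusted p = 0.17) after print-tip loess. The 4 clones of Sp110 disagreed: a clone in block 22 was called lower in both, at -0.54 (limma adjusted p = 0.00745) and -0.47 (adjusted p = 0.0349), and the other 2 were called in neither. Parp14, Cmpk2 and Psme1 were lower at -0.68, -0.60 and -0.57 (limma adjusted p = 0.00734, 0.00544 and 0.0123) and stood at -0.21, -0.14 and 0.02 after print-tip loess, with adjusted p-values from 0.179 to 0.929.

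Calls in the antigen presentation lists also differed between the normalizations. Of 10 tested class I genes, 1 was higher and 1 lower after global loess (median 0.18): Pdia3, a chaperone of the peptide-loading complex, at 0.77 ± 0.16 (SE, n = 6, limma adjusted p = 0.00491), and Psme1, a subunit of the proteasome activator. After print-tip loess 2 were higher (median 0.15), B2m and Calr, the chaperone calreticulin, at 0.45 (limma adjusted p = 0.0285), and Pdia3 stood at 0.37 ± 0.16 (adjusted p = 0.137). All 3 clones of Pdia3 were called higher after global loess and 1 of them after print-tip loess, at 0.46 (adjusted p = 0.025). A second Calr clone was at 0.53 (adjusted p = 0.0266) after global and 0.24 (adjusted p = 0.179) after print-tip loess. The 2 class I calls after global loess became 1 without array 4 and 0 without arrays 2 and 4. Of 11 tested class II genes, 2 were higher and 3 lower after global loess (median 0.24), and limma called none after print-tip loess (median 0.20), with 4 at an unadjusted p below 0.05. Of all 28659 clones, 9422 were below that level after print-tip loess. The 5 class II calls after global loess became 3 without array 3, 2 without array 4 and 3 without arrays 2 and 4, and 1 class II gene was called after print-tip loess without array 5.

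H2-DMa, which loads peptides onto class II molecules, was at 0.49 (limma adjusted p = 0.029) after global and 0.44 (adjusted p = 0.0694) after print-tip loess, and its second clone at -0.06 and -0.09, called in neither. H2-Aa, a class II alpha chain, was at 0.30 in both, not called. Its second clone was called after global loess, at 0.40 (limma adjusted p = 0.0264), and was at 0.33 (adjusted p = 0.0754) after print-tip loess. The scanner files name both H2-Aa clones otherwise, an amino acid transporter and a butyrophilin-like gene, so that their identity rests on the array annotation. Cd74, the invariant chain, was at 0.26 and 0.20, called in neither. The lower class II genes were Marchf1, Cd40 and Lgmn, at -0.64, -0.50 and -0.46 (limma adjusted p = 0.00444, 0.0149 and 0.0157), which stood at -0.03, 0.02 and 0.10 after print-tip loess. Of 6 tested genes of the Ly6 family, Ly6g6c was called higher after global loess, at 0.55 ± 0.16 (limma adjusted p = 0.0202), and was at -0.30 ± 0.10 (adjusted p = 0.0643) after print-tip loess, where Ly6e was the 1 gene called. Without array 4 no gene of this list was called after global loess, without array 5 there were 2, and without array 5 Ly6e lost its print-tip call.

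**Figure D4:**
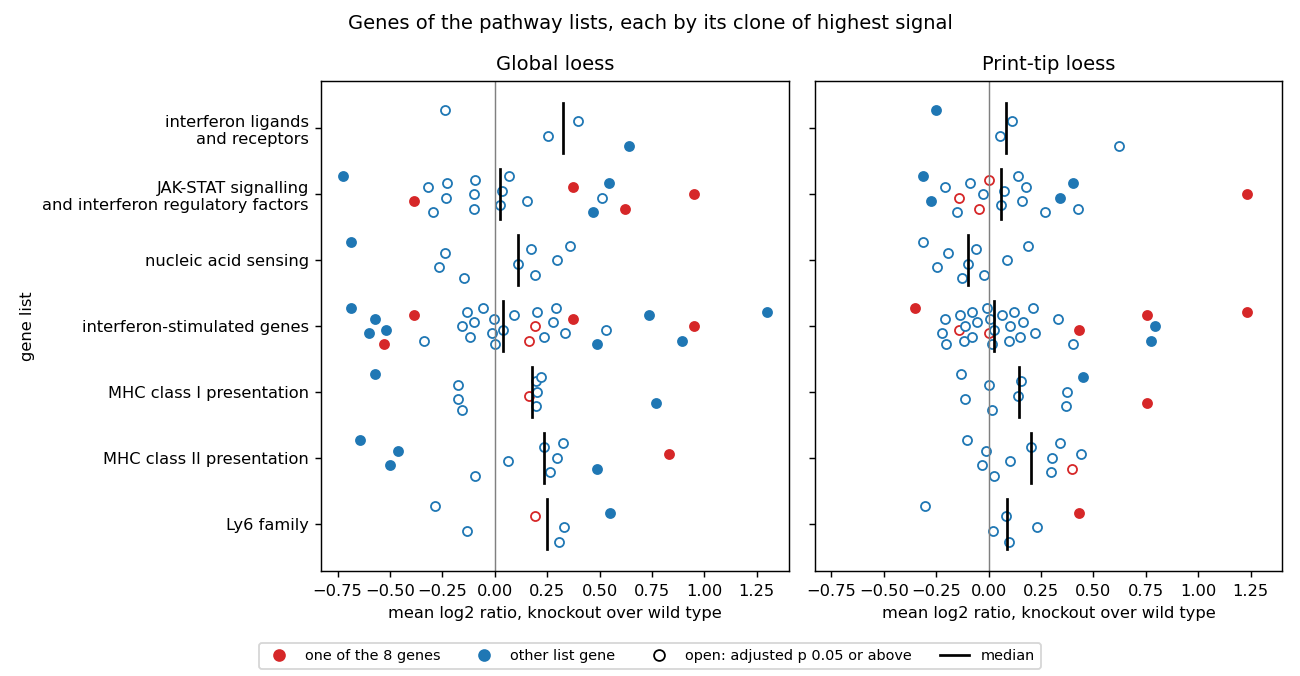
Mean log2 ratio (x axis) of every tested gene of 7 pathway lists (rows), each by its clone of highest signal, after global loess (left) and print-tip loess (right); red points are among the 8 genes, filled points have an adjusted p below 0.05 and black bars are list medians. Points lie on both sides of 0 in each list, and Irf1 at 1.23 is the highest after print-tip loess.

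In whole glands, fewer cells of a type and less RNA per cell cannot be told apart, and class II genes mark only some cells. Markers of macrophages, lymphocytes and dendritic cells, not all of which carry class II protein, were measured beside them. Of 9 tested macrophage markers, 3 were higher and 2 lower after global loess, and their values ran from -0.47 to 0.94 with a median of 0.11. After print-tip loess the median was 0.13 and C1qb, a complement chain made by macrophages, was the 1 called, at 0.88 ± 0.22 (limma adjusted p = 0.0364; 0.94 ± 0.22, adjusted p = 0.00778, after global loess). A second C1qb clone was at 0.23 and 0.25, called in neither. C1qa and C1qc, which encode the other chains of the same protein, were at 0.08 and 0.18 after global loess and at 0.14 and 0.13 after print-tip loess, with neither called. The 4 tested lymphocyte markers (Cd4, Cd79a, Cd79b and Thy1) and the 2 tested dendritic cell markers (Batf3 and Zbtb46) had no limma call in either normalization, with values from -0.23 to 0.31 after global loess. At an unadjusted p below 0.05 there were 2 lymphocyte markers after global loess, 0 after print-tip loess, and 0 dendritic cell markers in both. Of all 28659 clones, 12214 and 9422 were below that level. The part of any of these cells in the ratios of H2-Eb1 was not tested.

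Markers of the gland's own cells were measured too, with 7 of 12 listed cortex genes and 6 of 10 listed chromaffin cell genes on the array, and their medians were above 0. Of 7 tested markers of the adrenal cortex, 4 were higher after global loess and 3 after print-tip loess (medians 0.64 and 0.67). Of 6 tested chromaffin cell markers, 4 were higher and 1 lower after global loess, and 2 higher and 1 lower after print-tip loess (medians 0.82 and 0.52). The medians of the 15 clones, 0.28 and 0.33, were lower than these, and their part in each other was not tested.

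The patterns over the 6 arrays that lay closest to those of the 8 genes were found among 76 genes of the lists, by the smallest root-mean-square difference of the log2 ratios. Nearest to Irf1 were Pdia3 at 0.42, Ifitm3 at 0.52 and Sp100 at 0.54 after global loess, and after print-tip loess Ifitm3 and Sp100 were the nearest 2. The block 22 clone of Ly6e lay nearest to Ifitm1 in both, at 0.13 and 0.16. The block 28 clones of B2m and H2-Eb1 lay nearest to Ifitm3 at 0.29 and to Sp110 at 0.28 after global loess, and these ranked 51 and 9 after print-tip loess. The nearest to the Irf7 clone after global loess was Ifngr2, at 0.22, which ranked 8 after print-tip loess at 0.23. These differences describe 6 arrays that share their printing and dyes.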

How the data were processed

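Total RNA of 6 wild-type and 6 knockout samples was hybridised to 6 two-colour NIMH Mouse 36K cDNA arrays. A GenePix 4000A scanner, IPlab and a FileMaker Pro 5 database were used, per the study's design text. In the deposited intensity columns local background was already subtracted: empty positions (768) had a median of 1 in red and in green. The deposited ratio is that of red to green, scaled by a constant of each array. The deposited quality score is a fraction from 0 to 1. The authors' value table holds log2 ratios of red over green, with background subtracted a second time and low values raised to 1; it served as an alternative and to name clones, as 35793 of 35873 rows (99.78%) met 1 spot within 0.002.

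Only spots with a quality above 0.3 were used, without 1066 control or empty spots. Log2 ratios of green over red were normalized by global loess (span 0.3) and averaged over the spots of each clone. Clones measured on 4 or more arrays were tested with limma 3.58.1 (lmFit, eBayes) in R 4.3.3. Print-tip loess is given beside each value. Scripts were tested on simulated data. Figures used Python 3.11.15. Gene positions and promoters came from RefSeq (GRCm38.p6). Named were the 8 genes with all clones and, from each list, up to 3 genes per direction with the largest called ratio of 1 sign on every array; any other gene was chosen with its values in view. For a gene with several clones the lists use the clone of highest mean signal. The members, lists and tests were chosen with earlier results of these data known.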

Additional observations from a re-analysis of the deposited data

Results flagged for a closer look

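Among 60 sets of 5 or 6 array values examined for a value far from the rest (30 named clones in both normalizations), Sp110 after global loess was the 1 flagged: array 4 was at 1.23, whereas the other 5 arrays lay between 0.48 and 0.74. The gap was 0.65 of the whole range of the 6 values. Chance alone gives such a gap in about 1 in 20 sets, so that 1 flag among 60 sets is no more than chance would give.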

How the results depend on the processing

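Of the 28659 tested clones, 8748 were called after global loess, and 10 of them belonged to the 8 genes. The counts, all clones first, were 3300 and 6 after print-tip loess, 2404 and 4 after a second background subtraction, 88 (all higher) and 0 with the authors' value table, 2227 and 4 without arrays 2 and 4, and 92 and 0 for print-tip loess without these arrays. For all clones they were 4331 with block medians subtracted (9 of the 8 genes) and 5653 with normexp at offset 50 (9). Leaving out 1 array gave 4492 to 8645 and 6 to 10 after global loess, both lowest without array 4. After print-tip loess it gave 1 to 3779 and 0 to 6: 1 without array 2, 3 or 6, 28 without array 4, 3779 without array 1 and 2751 without array 5, with 0 of the 8 genes without array 2, 3, 4 or 6. Where limma called 0 clones of the 8 genes, 3 (value table), 6 (print-tip without arrays 2 and 4) and 8 to 10 (print-tip without 1 array) had an unadjusted p below 0.05. These counts were not compared with all clones, of which 9422 were below that level after print-tip loess with all 6 arrays. Alternatives with print-tip loess chosen after seeing the data gave 3049 and 6 (both signals above background, that is, both subtracted signals above the local background value), 3339 and 6 (quality above 0.5) and 0 and 0 (no quality filter; 10127 and 8 at unadjusted p). The cause of these moves was not tested.

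Of the clones of the 8 genes called after global loess, those of Stat2 and Irf9 changed sign under an alternative. Some clones not called after global loess changed sign too. With the value table B2m in block 1 was at -0.66, Ly6e in block 13 at -0.39 and Ly6e in block 22 at -0.022. The first 2 of these are called higher after print-tip loess. After global loess without arrays 2 and 4 they were at -0.012 and -0.026. With median centring in place of loess B2m in block 1 was at -0.085. All changes to Stat2 arose with print-tip loess or block medians subtracted; the filters and left-out arrays alone did not turn its sign. Stat2 in block 44 was at -0.045 after print-tip loess and, still with print-tip loess, at -0.064 without arrays 2 and 4, -0.10 to 0.02 without 1 array (-0.10, -0.074, -0.028, -0.031 and -0.052 without array 1, 2, 3, 4 or 5), and -0.042, -0.046 and -0.036 with both signals above background, quality above 0.5 and no quality filter. Stat2 in block 2 was at 0.060 after print-tip loess, 0.033 with block medians subtracted from global loess and, with print-tip loess, at 0.023 to 0.092 without 1 array (0.092, 0.023, 0.049, 0.043, 0.062 and 0.090), and 0.073, 0.060 and 0.059 under the same 3 filters. Irf9 was at -0.21 with the value table, at -0.04 to 0.04 after print-tip loess without 1 array (-0.024, -0.015 and -0.040 without array 4, 5 or 6) and at -0.0021 with print-tip loess and no quality filter. Over the 15 clones and all alternatives, 259 values kept their side of the threshold, 113 lost the call, 21 gained it and 26 reversed. The sign changes given above for B2m and Ly6e were not counted among the 26 reversed. For the counts of the 7 pathway lists, 48 stayed within 1.5 times and 71 did not. All tests were paired by array, because each array pairs 1 wild-type with 1 knockout RNA and gives 1 ratio. The number of arrays limits the precision.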
